A study of Mus musculus with 8 samples.

Results

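The genes examined encode 10 enzymes and enzyme subunits of serine and glycine metabolism: Phgdh, Psat1, Psph, Srr, Gldc, Gcsh, Amt, Dld, Gcat and Sds. They were chosen by name, and 9 of the 10 were found by symbol in the authors' deposited comparison among 39179 gene identifiers and joined to the counts by Ensembl identifier. Gcat was found only through its identifier, ENSMUSG00000006378, which the deposited tables call Galr3, and its values may therefore include reads of Galr3.

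RNA was measured in astrocytes, the star-shaped glia of the central nervous system, from mouse spinal cord at postnatal days 12 to 14. The cKO group, with 4 libraries (S3, S4, S5 and S8), carried floxed Kir4.1 alleles and Aldh1l1-cre, so that Kcnj10, the gene of the potassium channel Kir4.1, was deleted in Aldh1l1-expressing cells. The control group, with 4 libraries (S1, S2, S6 and S7), was cre-negative and is labelled wild-type; whether it carried floxed alleles is not given. Values per library are printed in the order of these numbers, controls first. All mice were of a mixed Swiss-Webster background and carried the Aldh1l1-GFP reporter, by which the cells were sorted after papain dissociation, so the sorted and the recombined cells are those that use the Aldh1l1 regulatory elements. The sex of the animals, and how many animals went into a library, are not given in the sources used here.

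L-serine is made from the glycolytic intermediate 3-phosphoglycerate in a sequence that starts with Phgdh, continues with the aminotransferase Psat1 and ends with the phosphatase Psph. In the brain and spinal cord this route is regarded as mainly astrocytic, and it supplies neurons with serine for lipids, for glycine and for D-serine, a co-agonist of NMDA receptors made by serine racemase, Srr. Glycine, itself an inhibitory transmitter of the spinal cord, is broken down in mitochondria by the glycine cleavage system. That system consists of the decarboxylase Gldc (P protein), the lipoate carrier Gcsh (H protein), the aminomethyltransferase Amt (T protein) and the dihydrolipoamide dehydrogenase Dld (L protein), which also serves pyruvate dehydrogenase and related complexes. Gcat makes glycine from a threonine product, and Sds turns serine into pyruvate.

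The measurement of Phgdh differs from that of the other members because the mouse genome holds many retrocopies of it. In the GENCODE transcripts, 17 processed pseudogenes matched the longest coding Phgdh transcript at 90% identity or more over at least 300 bases, and 14 of them did so over a kilobase or longer. Of all 50-base windows of the Phgdh transcript, 63.1% occur letter for letter in a transcript of a gene elsewhere in the genome, on either strand, as do 47.4% of 75-base and 37.3% of 100-base windows. Outside Phgdh, such windows of 50 bases were rare, at 1.21% in Psat1, 2.08% in Gcsh and 1.87% in Amt, and none were found in the other members. With windows of 75 and 100 bases Phgdh was the only member with any. The count tables set reads that match several positions apart in a line of their own. Reads from the shared windows can therefore be missing from the Phgdh counts in any library, and its level may be understated. Whether such a loss was equal between libraries was not tested. The read length is not given in the sources used here.

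Reads assigned to copies of Phgdh were fewer than those assigned to Phgdh itself. Of the 17 pseudogenes, 6 are in the count tables, and their summed reads were 72, 33, 66 and 89 for the controls against 96, 100, 71 and 123 for cKO. Phgdh itself had 207, 191, 367 and 497 reads in the controls against 315, 563, 425 and 474 in cKO. The copies therefore took between 14.3% and 25.8% of the reads that fell on Phgdh or a counted copy, with no separation of the groups.

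**Figure D1:**
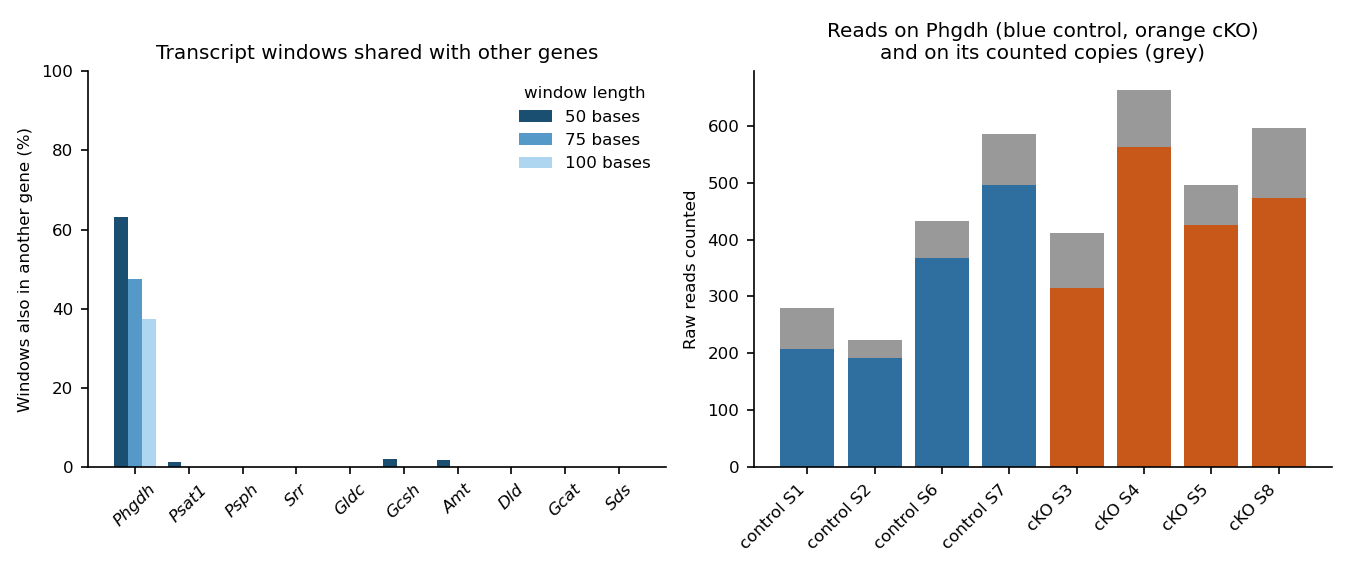
The left panel plots, for each member, the percentage of 50-, 75- and 100-base windows of its longest coding transcript that occur exactly in a transcript of a gene at another locus; Phgdh reaches 63.1% at 50 bases and no other member exceeds 2.08%. The right panel plots raw reads on Phgdh (blue control, orange cKO) and on its 6 counted copies (grey) in the 8 libraries.

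Gene reads ranged from 13892736 to 25065686 per library, and 32.6% to 44.3% of them fell on rRNA-like transcripts. Levels are given as CPM, read counts divided by the TMM-adjusted library size and scaled to a common total. Kcnj10 was at 1181 to 2306 CPM in controls and at 27.2 to 37.6 CPM in cKO (log2 fold change −5.74, standard error 0.25, edgeR's adjusted p 7.52e-08), so every library matched its group's label. Aldh1l1, whose regulatory elements the reporter and the cre use, was itself higher in cKO (log2 fold change 1.01, edgeR's adjusted p 0.0179). Whether this altered which cells were sorted was not tested. Summed CPM of 11 astrocyte markers was 21222 to 38064 in controls and 26111 to 33841 in cKO, while the lists for microglia, neurons, endothelial, mural, ependymal and red blood cells each summed to 89.3 CPM or less in every library. Fibroblast markers summed to 596 CPM in control S6, the lowest control for 6 members, and to 101 to 206 CPM in the other 7 libraries, and Schwann cell markers to 68.6 to 189 CPM. Oligodendrocyte markers summed to 1539 to 3077 CPM in controls and 1022 to 2481 CPM in cKO, with all 11 estimates lower in cKO and 0 of 11 past the threshold. Control S7, which recurs in the results on the members, had 1486 CPM of oligodendrocyte precursor markers, against 529 to 944 CPM in the other controls and 606 to 718 CPM in cKO. It also had the highest oligodendrocyte sum of all 8 libraries, 3077 CPM. Its astrocyte sum was the lowest, at 21222 CPM, close to the 21291 CPM of control S6. Lower estimates in cKO were found for 6 of 7 oligodendrocyte precursor, 8 of 9 endothelial, 6 of 7 fibroblast and 7 of 10 tested neuron markers. Neuron markers summed to 59.5 to 89.3 CPM in controls and 34.8 to 78.4 CPM in cKO. Of the tested microglia markers 6 of 8 had higher estimates in cKO, as did 7 of 10 genes of cell dissociation and immediate early response. The latter summed to 62.8 to 97.0 CPM in controls and 87.8 to 116 CPM in cKO. Of the tested mural markers 3 of 5 and of the ependymal markers 2 of 4 had lower estimates. The 11 astrocyte markers had 6 higher and 5 lower estimates in cKO. Of them 1, Aqp4, was called, higher in cKO (log2 fold change 1.09, edgeR's adjusted p 0.0243). None of the lists for other cell types or for dissociation held a called gene. No marker was at 0 in every library, and the part of these cells and of dissociation in the results was not tested. The single columns of the deposited FPKM table followed the count table of the same library name in only 3 of 8 cases, although all 8 matched a library of their own group. Library names within a group are therefore those of the count tables, FPKM values are given by group only, and which replicate name is right cannot be told from the files.

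The control levels of the members per transcript length ranged from 0.453 to 109, with Psat1 at the top and Sds at the bottom. In the deposited FPKM values, which scale fragments by transcript length and sequencing depth, Psat1 was at 109 ± 16.9 in controls and 129 ± 23.7 in cKO (± SD, n = 4 per group), above 96.6% of the 14757 tested genes. The H protein gene Gcsh followed at 47.5 ± 12.9 and 47.3 ± 2.52 FPKM, and the L protein gene Dld at 36.9 ± 3.83 and 37.2 ± 7.33 FPKM (± SD, n = 4 per group). In both groups the range of Psat1 lay above that of Gcsh, while the ranges of Gcsh and Dld overlapped.

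In FPKM, Srr, Psph and Phgdh came next. Srr was at 22.9 ± 4.04 FPKM in controls and 26.9 ± 2.70 in cKO (± SD, n = 4 per group). Psph was at 21.1 ± 8.22 and 33.2 ± 10.5 FPKM, and Phgdh at 12.9 ± 3.42 and 16.9 ± 3.34 FPKM (± SD, n = 4 per group), the latter possibly understated by the shared windows described above. In controls neither Srr and Psph nor Psph and Phgdh differed beyond their ranges. In cKO the FPKM ranges of Psph and Phgdh did not overlap, with Psph above, but this order turned with the length used.

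The remaining glycine cleavage genes were much lower than Gcsh and Dld. Amt was at 9.19 ± 2.89 FPKM in controls and 8.21 ± 1.98 in cKO, and Gldc at 3.83 ± 2.05 and 4.31 ± 1.75 FPKM (± SD, n = 4 per group), a level exceeded by most tested genes, since only 33.4% of them were lower. Gcat was at 2.43 ± 1.84 and 2.47 ± 1.25 FPKM, and its range overlapped that of Gldc in both groups. Sds was listed at 0 FPKM in at least 1 column of each group and at no more than 2.002 FPKM in any.

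The order of the means depended on the length used, both at the top and below it. Psat1 also led when CPM were divided by the length of the longest coding transcript, at 41.2 ± 5.35 per kilobase in controls against 33.6 ± 9.07 for Gcsh (± SD, n = 4 per group). Divided by the joint length of all annotated exons instead, Gcsh stood first with 30.7 and Psat1 second with 25.3 CPM per kilobase. With either of these lengths the ranges of Psat1 and Gcsh overlapped in both groups. For Psph and Phgdh in cKO, the means were 11.42 and 11.38 CPM per kilobase of the longest coding transcript, with overlapping ranges. Per kilobase of all exons, Phgdh ran from 6.47 to 10.3 and Psph from 3.37 to 5.96 in cKO, so that Phgdh was wholly above. On that scale the mean of Psph also fell below that of Amt in controls, at 3.12 against 4.08, with overlapping ranges.

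**Figure D2:**
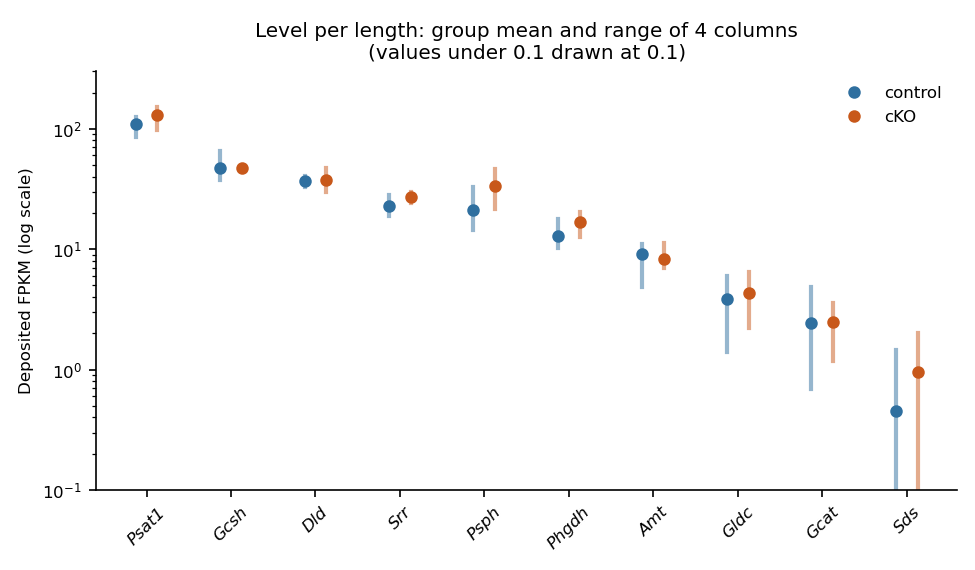
Deposited FPKM values (log scale) of the 10 members, ordered by control mean; points are group means and lines run from the lowest to the highest of the 4 columns of a group, with values under 0.1 drawn at 0.1. Psat1 is highest with 109 FPKM in controls and 129 in cKO, and Sds lowest.

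Loss of Kir4.1 was then compared with control for each member, to ask whether astrocytes without this channel express the serine and glycine genes differently. No member passed the threshold of an adjusted p of 0.05 in edgeR's quasi-likelihood test, which used 14757 genes and Benjamini-Hochberg adjustment over all of them. Of these genes 0.318% were called, 30 higher and 17 lower in cKO, so 0 of 9 tested members is near the background. The same 9 members included 0 with an unadjusted p under 0.05, against 9.81% of all genes tested, and 0 whose control and cKO libraries did not overlap, against 6.34%. DESeq2 on the same counts also called 0 of 9, against 2.26% of 13557 genes with an adjusted p. Limma-voom called 0 of 9 as well, against 48 of 14757 genes. Sds did not pass the filter on low counts and was not tested. Since the RNA was measured in bulk, fewer cells of a type and less RNA per cell cannot be told apart in any of these values.

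Of the 9 estimates, 6 were above 0, against 48.4% of all genes tested, and their median log2 fold change was 0.12, against −0.017 over all genes. The estimates ran from −0.34 to 0.55.

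The serine synthesis genes had the estimates that kept one sign, above 0, for all 3 members. Phgdh (ENSMUSG00000053398, GRCm38 chromosome 3, 98313170 to 98339990, minus strand) was at 13.1, 13.9, 20.2 and 23.5 CPM in controls against 16.1, 25.5, 24.2 and 20.3 CPM in cKO. Only cKO S4 and S5 were above every control library, and control S7 was above the cKO mean of 21.5 CPM. The log2 fold change was 0.28 (standard error 0.27) with a 95% interval from −0.29 to 0.86, and edgeR's adjusted p was 0.782. It ranged from 0.16 without control S1 to 0.46 without control S7. With reads of the 6 counted copies added to those of Phgdh, an alternative chosen after seeing the data, the log2 fold change was 0.29 and edgeR's adjusted p 0.743.

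Psat1, the aminotransferase (ENSMUSG00000024640, chromosome 19, 15904678 to 15947337, minus strand), was at 117, 88.2, 107 and 119 CPM in controls against 126, 139, 129 and 88.0 CPM in cKO. Here 3 cKO libraries stood above all controls, while cKO S8 was the lowest of all 8. Its log2 fold change was 0.16 (standard error 0.18) with an interval from −0.22 to 0.55, or 0.858 to 1.46 times the control level (edgeR's adjusted p 0.820). It ranged from 0.078 without control S2 to 0.29 without cKO S8.

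Psph, the phosphatase of the last step (ENSMUSG00000029446, chromosome 5, 129765558 to 129787449, minus strand), had the largest estimate among the members. Controls held 10.6, 14.9, 8.95 and 19.6 CPM, and cKO libraries 18.6, 25.8, 20.1 and 14.6 CPM. All 4 cKO libraries exceeded the control mean of 13.5 CPM, but control S7 lay above cKO S3 and S8, and control S2 above cKO S8. The log2 fold change was 0.55 (standard error 0.30) with an interval from −0.10 to 1.199 (edgeR's adjusted p 0.587). Without control S7 it was 0.79, with an unadjusted p of 0.0196 and an adjusted p of 0.421 from the same edgeR test. The exons of Psph share 452 bases with Cct6a on the opposite strand. The strand setting of the counting is not given in the sources used here. Whether reads from that part were counted for 1 of the genes or left out of both is therefore not known.

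Srr, which makes D-serine (ENSMUSG00000001323, chromosome 11, 74906359 to 74925948, minus strand), had the estimate closest to 0 in the fit to counts; from the deposited FPKM with a pseudocount of 0.1 its log2 fold change was 0.24. It was at 21.4, 22.3, 20.7 and 35.0 CPM in controls against 27.7, 28.3, 23.0 and 21.1 CPM in cKO. Control S7 was the highest of all 8 libraries, and the other 3 controls sat close together below it. The log2 fold change was 0.010 (standard error 0.24), and its interval from −0.50 to 0.52 spans 0.706 to 1.44 times the control level (edgeR's adjusted p 0.993). Without control S7 the log2 fold change was 0.23, the largest Srr value among the fits that left out 1 library. The exons of Srr share 1240 bases with Tsr1 and 126 with Smg6, both on the opposite strand, with the same limit on reads from those parts.

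**Figure D3:**
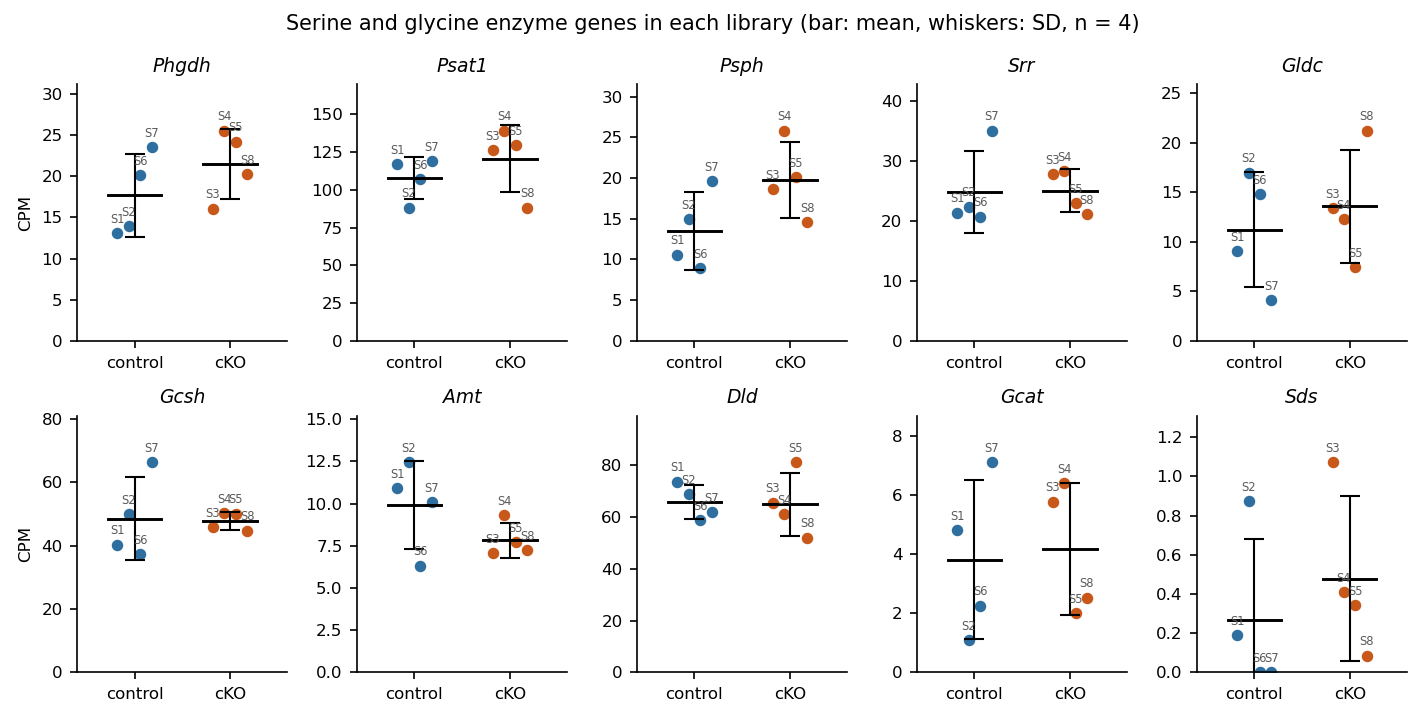
CPM of the 10 members in each of the 8 libraries (points, labelled by library number), with group mean (bar) and SD (whiskers, n = 4) for control (blue) and cKO (orange); each axis starts at 0 and has its own scale. Control S7 is highest among controls for Phgdh, Psat1, Psph, Srr, Gcsh and Gcat, and the groups overlap for every member.

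Within the glycine cleavage system, none of the 4 subunit genes passed the threshold, and their spread between libraries differed widely. Gldc, the decarboxylase that starts the reaction (ENSMUSG00000024827, chromosome 19, 30098447 to 30175429, minus strand), was at 9.06, 17.0, 14.8 and 4.12 CPM in controls against 13.4, 12.3, 7.41 and 21.2 CPM in cKO. Its highest library, cKO S8, held 5.14 times the level of its lowest, control S7. The coefficient of variation was 51.6% in controls and 42.1% in cKO, against a median of 23.0% within controls over 7880 tested genes with a mean of at least 10 CPM. The log2 fold change of 0.28 had a standard error of 0.43 and an interval from −0.66 to 1.21 (edgeR's adjusted p 0.883), which spans 0.634 to 2.31 times the control level. Without cKO S8 the estimate was −0.023, and without control S2 it was 0.54.

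Gcsh, the lipoate carrier (ENSMUSG00000034424, chromosome 8, 116981810 to 116993537, minus strand), was at 40.3, 50.01, 37.2 and 66.3 CPM in controls. In the cKO libraries it lay between 44.8 and 50.2 CPM, a coefficient of variation of 5.86% against 27.0% in controls, with no test of that difference. The log2 fold change was −0.023 with an interval from −0.46 to 0.41 (edgeR's adjusted p 0.982). Gcsh has 4 processed pseudogenes over at least 300 bases, of which 2 are in the count tables, and Gm12564 took at most 44 reads in a library.

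Amt, the aminomethyltransferase (ENSMUSG00000032607, chromosome 9, 108296853 to 108302302, plus strand), had the lowest estimate of the members. It was at 10.9, 12.4, 6.32 and 10.1 CPM in controls against 7.05, 9.30, 7.69 and 7.23 CPM in cKO. Control S6 was the lowest of all 8, and the other 3 controls were above all cKO libraries. The log2 fold change was −0.34 (standard error 0.32) with an interval from −1.04 to 0.35 (edgeR's adjusted p 0.776), and without control S6 it was −0.51.

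Dld, shared with the other lipoamide-dependent complexes (ENSMUSG00000020664, chromosome 12, 31331277 to 31351453, minus strand), was at 73.6, 68.9, 58.9 and 62.0 CPM in controls against 65.6, 61.1, 81.2 and 52.05 CPM in cKO. Both the highest and the lowest of the 8 libraries were cKO, and the controls lay between them. Its interval was the narrowest of the 9, with a log2 fold change of −0.019 and limits of −0.40 and 0.36 (edgeR's adjusted p 0.983).

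Gcat and Sds had the fewest reads of the members. Gcat (chromosome 15, 79030874 to 79038353, plus strand), under the caveat on its identifier, had 76, 15, 41 and 150 reads in controls against 113, 141, 35 and 59 in cKO, with a log2 fold change of 0.12 and an interval from −1.22 to 1.47 (edgeR's adjusted p 0.970). It ran from −0.18 without control S2 to 0.62 without control S7. A second gene named Gcat in GENCODE shares 1132 exonic bases with it and is not among the counted genes. Sds (ENSMUSG00000029597, chromosome 5, 120476526 to 120483932, plus strand) had 3, 12, 0 and 0 reads in controls against 21, 9, 6 and 2 in cKO. The 0 counts of control S6 and S7 allow levels up to 0.155 and 0.136 CPM of unadjusted gene reads (3 counts each, for counting error only). In an edgeR fit that kept every gene with at least 1 count in any library, Sds was not called either. Sds also overlaps Plbd2 and Gm15690 on the opposite strand.

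**Figure D4:**
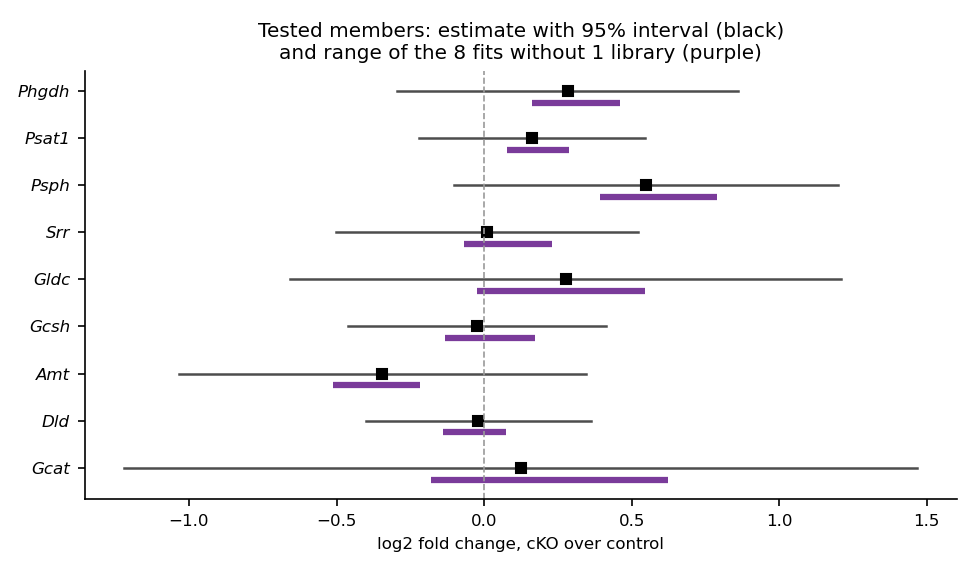
Log2 fold change, cKO over control, of the 9 tested members with 95% intervals (black squares and lines) and the range over the 8 fits that each left out 1 library (purple). Every interval includes 0, and the highest estimate, Psph at 0.55, and the lowest, Amt at −0.34, keep their sign in all 8 fits.

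Serine synthesis was set against glycine cleavage within each library, as the mean log2 CPM of Phgdh, Psat1 and Psph minus that of Gldc, Gcsh, Amt and Dld, a description with no test because the genes were chosen with results known. The difference was 0.12, −0.15, 0.33 and 0.89 in controls against 0.54, 0.89, 0.85 and 0.28 in cKO. The groups overlapped, with control S7 level with the highest cKO library. It averaged 0.30 ± 0.44 over controls and 0.64 ± 0.29 over cKO (± SD, n = 4 per group). With the median over the genes of a route in place of the mean, the difference was −0.49 in controls and −0.16 in cKO. The sign of the difference thus turned with the summary used. In the median version control S7, at −0.090, was below cKO S4 and S5, at 0.054 and 0.30, and the groups still overlapped. Neither version divides by transcript length, and Phgdh may be understated, so neither says which route was higher per transcript. The mean log2 CPM of the synthesis genes was 4.85 ± 0.27 and 5.20 ± 0.27, and that of the cleavage genes 4.55 ± 0.23 and 4.56 ± 0.072 (± SD, n = 4 per group), so the groups' means differed by 0.35 for synthesis and 0.0082 for cleavage.

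Some libraries were the highest or the lowest of their group for many members. Control S7 was the highest control for 6 of the 10 members and the lowest for Gldc, while control S6 was the lowest control for 6, counting a tie with S7 at 0 reads for Sds. Among cKO libraries, S4 was highest for 7 members and S8 lowest for 6. How often these libraries were extreme over all tested genes was not counted, so whether this is particular to the members was not tested. The authors' deposited table gave none of the members an adjusted p under 0.05 either, against 2.87% of 12314 genes. Its lowest value among them was 0.457 for Psph, with a log2 fold change of 0.46.

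The genes whose pattern over the 8 libraries was closest to that of Phgdh, by the root mean square (RMS) difference of mean-centred log2 CPM, were H3f3b, Tet3, Morf4l2, Atf2 and Pde4b. Their RMS differences were 0.13, 0.14, 0.14, 0.15 and 0.15, where the median over 7879 genes was 0.47. Whether other members followed a similar pattern cannot be read from 5 genes. Amt, Gcat and Sds, with means under 10 CPM, were not among the genes compared. For Gldc the closest were Ddx23, Pank1, Rad50, Gm20491 and Arhgap18, with RMS differences of 0.27 to 0.35 against a median of 0.79.

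Genes around the pathway were counted from 6 lists holding 86 genes, of which 75 were tested. Of these, 2 rose in cKO, both in the list of serine and glycine transporters, and 0 fell. Over all genes tested, edgeR called 0.203% higher and 0.115% lower. DESeq2 called the same 2 of the 75, near its background of 2.26%. At an unadjusted p under 0.05 in edgeR's test, 6 were higher and 2 lower, near the 9.81% of all genes tested. The median log2 fold change over the 75 was 0.030.

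Slc38a1, a sodium-coupled carrier of small neutral amino acids, was at 53.1 to 74.0 CPM in controls and 242 to 344 CPM in cKO, with no overlap. Its log2 fold change was 2.17 (standard error 0.19, edgeR's adjusted p 0.000235). Slc38a2, a related carrier, was at 53.9 to 90.2 CPM in controls and 129 to 197 CPM in cKO, a log2 fold change of 1.13 (standard error 0.20, edgeR's adjusted p 0.0363). Slc38a2 passed in only 1 of the 8 fits that left out a library, the one without control S7, and its edgeR adjusted p reached 0.158, whereas Slc38a1 passed in all 8.

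The other 12 tested transporter genes, which include the citrate carrier Slc25a1, did not pass. The glycine transporter Slc6a9 (GlyT1) was the most abundant gene of the list, at 578 ± 188 CPM in controls and 657 ± 154 CPM in cKO (± SD, n = 4 per group), and its log2 fold change was 0.18. Sfxn3, a mitochondrial carrier of the serine-transporting sideroflexin family, had a log2 fold change of 1.06 without overlap between the groups. Its unadjusted p was 0.0208 and its adjusted p 0.397 in edgeR's test.

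Among the 17 tested genes of other serine and glycine use, 0 passed. Dao, the D-amino acid oxidase that degrades D-serine, was at 19.9, 8.23, 6.43 and 2.75 CPM in controls against 35.4, 43.4, 70.8 and 12.2 CPM in cKO. Only cKO S8 fell inside the control range, below control S1. Its log2 fold change was 2.12 (standard error 0.57, interval 0.89 to 3.35, unadjusted p 0.0025), and edgeR's adjusted p was 0.189. Gss, which joins glycine to the glutathione precursor, was at 20.5 ± 1.89 CPM in controls and 12.4 ± 3.21 CPM in cKO (± SD, n = 4 per group) without overlap, a log2 fold change of −0.73 with an adjusted p of 0.360 in edgeR's test. Serinc1 was the most abundant gene of this list, with a log2 fold change of −0.13.

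In the remaining 4 lists 0 genes passed edgeR's test or DESeq2's. The list of serine and glycine interconversion and mitochondrial one-carbon metabolism also holds genes of other routes, such as Cbs and Cth. Of its 12 genes 11 were tested, with 0 at an unadjusted p under 0.05 in edgeR's test. Among the tested genes 8 estimates were above 0, and the median log2 fold change was 0.19. The most abundant gene of this list was Cbs, which condenses serine with homocysteine, at 151 ± 49.3 CPM in controls and 137 ± 18.8 CPM in cKO (± SD, n = 4 per group). The list of lipoate attachment and the partner enzymes of Dld had 12 of 12 genes tested, 0 at an unadjusted p under 0.05, 3 estimates above 0 and a median of −0.10, with Ogdh the most abundant.

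The amino acid response list, whose factor Atf4 is known to drive serine synthesis genes, had 15 of 19 genes tested, 9 estimates above 0 and a median log2 fold change of 0.075. In this list 2 genes had an unadjusted p under 0.05: Nfe2l2 had a log2 fold change of 0.48 without overlap between the groups and Vldlr one of −0.75, with adjusted p of 0.376 and 0.449 in edgeR's test. Slc3a2 was its most abundant gene. The 6 lower glycolysis genes include enzymes that lead to 3-phosphoglycerate and enzymes that act after it. Of them, 5 had estimates above 0, and the median was 0.17. Eno1, the 1 gene of them with an unadjusted p under 0.05 in edgeR's test, acts after 3-phosphoglycerate. It was at 316 ± 40.9 CPM in controls and 469 ± 128 CPM in cKO (± SD, n = 4 per group). Its groups did not overlap, though control S7 at 357.7 and cKO S3 at 358.7 CPM were close. The log2 fold change of Eno1 was 0.57 with an adjusted p of 0.326 in edgeR's test. Gapdh, the most abundant, had a log2 fold change of 0.11.

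**Figure D5:**
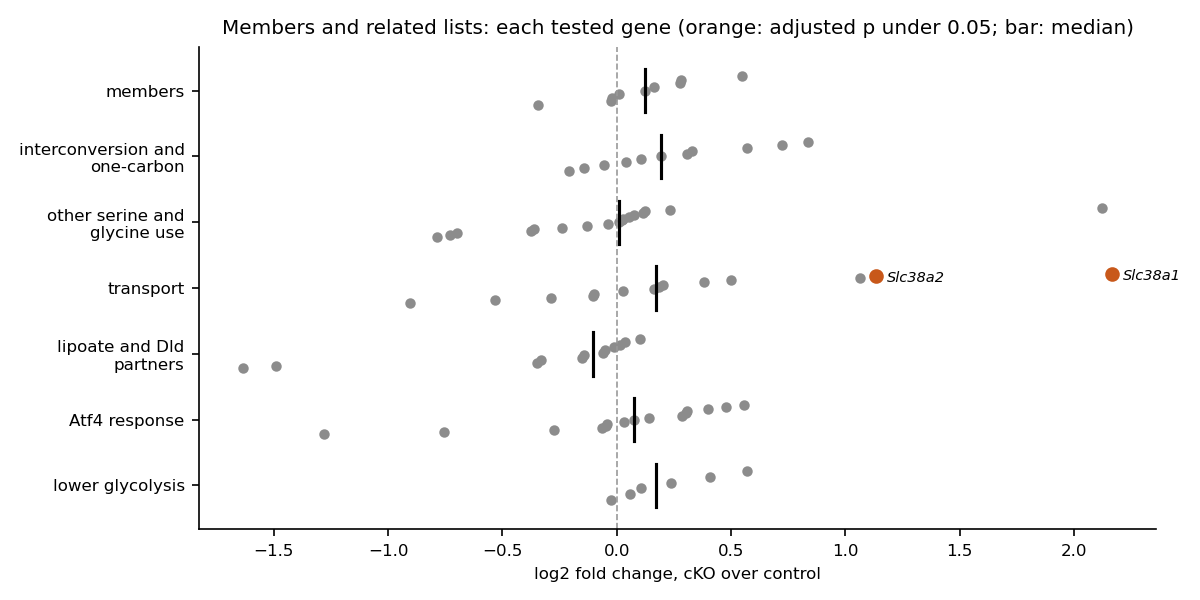
Log2 fold change, cKO over control, of every tested gene in the member set and in the 6 related lists (points; orange for an edgeR adjusted p under 0.05, black bar for the list's median). Only Slc38a1 at 2.17 and Slc38a2 at 1.13 pass; the gray point at 2.12 in the list of other serine and glycine use is Dao.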

How the data were processed

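RNA was measured in 8 libraries, 4 control and 4 cKO, grouped by sample title. Per the submitters' processing notes, the tools included TopHat2 2.0.11, Bowtie2 2.2.3, HTSeq 0.6.1p1, DESeq2 1.14.1 and Cufflinks 2.2.1 with build GRCm38; annotation release and strand setting are not given in the sources used here. The authors deposited raw counts per gene and library, whose summary lines (56.4% to 61.7% of reads) were left out, and FPKM values. Their deposited comparison holds, per the file headers, group means of scaled counts (a signal), log2 fold changes, standard errors and Wald statistics (scores) and p-values.

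The group comparison used edgeR 4.0.16 (quasi-likelihood test, TMM scaling, filterByExpr, no covariate) in R 4.3.3, with DESeq2 1.42.0 and limma 3.58.1 as alternatives. Log2 CPM used a prior count of 2, FPKM were tested by limma as log2(FPKM + 0.1 or 1) for genes with a mean of at least 0.5, and intervals are at 95%. Transcript copies were sought with BLAST+ 2.17.0 in GENCODE release M21, which also gave lengths and overlaps. Sequences of Phgdh and its copies are not reported here. The fits were tested on simulated data.

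Members and lists were chosen with earlier results of these data known. Named were all members, Kcnj10, list genes with an adjusted or unadjusted p under 0.05 (up to 5 per list), the most abundant gene of each list, and the 5 genes closest in pattern to Phgdh and to Gldc among those with at least 10 CPM. Aldh1l1 and the called astrocyte marker Aqp4 were named as well, with results known. The series' design text calls the libraries biological replicates. Alternatives covered scaling, test, filter, rRNA-like transcripts, Xist level as a covariate, FPKM and leaving out each library.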

Additional observations from a re-analysis of the deposited data

Results flagged for a closer look

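Srr was at 35.0 CPM in control S7, far above the other 3 controls at 20.7 to 22.3 CPM. This was 1 of 20 groups of 4 libraries examined over the 10 members, and the criterion is set so that about 1 in 20 such groups stands out by chance; whether this value does was not tested.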

How the results depend on the processing

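No member passed the threshold in any setting: all 163 member values under an alternative had an adjusted p above 0.05, and 1 (Psph without control S7) an unadjusted p under 0.05. The direction stayed the same in 142 and turned in 21, and Phgdh, Psat1, Psph and Amt kept it throughout. With library totals, which moved the median of all genes from −0.017 to 0.091, the log2 fold change was 0.083 for Gcsh and 0.097 for Dld, and 48 genes were called higher and 14 lower, against 30 and 17. From FPKM with a pseudocount of 0.1 and of 1, Gcsh was at 0.031 and 0.029, Srr at 0.24 and 0.23 and Amt at −0.12 and −0.11. Limma-voom gave 0.48 for Gldc, and Xist as a covariate 0.51 for Gcat. The cause was not tested. Without 1 library, estimates ran from −0.069 to 0.23 for Srr, −0.023 to 0.54 for Gldc, −0.13 to 0.17 for Gcsh, −0.14 to 0.074 for Dld and −0.18 to 0.62 for Gcat, with Phgdh at 0.16 to 0.46, Psat1 at 0.078 to 0.29, Psph at 0.39 to 0.79 and Amt at −0.51 to −0.22. Against 47 genes called in all, DESeq2 called 306, a filter of at least 1 count in any library 87, one of at least 10 counts in every library 84, and Xist as a covariate 28, while leaving out 1 library gave 4 to 45: 4 without cKO S4, 14, 16 and 30 without control S2, S6 and S1, 24 and 28 without cKO S5 and S8, and 40 or more without the other libraries. The list genes called numbered 1 to 2 without 1 library and 2 in every other setting. Synthesis minus cleavage differed between groups by 0.34, by 0.32 with medians, and by 0.19 (without control S2) to 0.54 (without control S7) leaving out 1 library. No paired analysis was made, because the labels give no litter or batch by which libraries could be paired. Sds had at most 21 reads in a library.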
